A study of Mus musculus with 12 samples.

Results

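Gene expression was compared between mouse embryonic stem cells of B6-13D2 and of D2, which carry the same DBA/2J segment of chromosome 13 on different backgrounds. D2 is the inbred strain DBA/2J. B6-13D2 is the congenic strain B6.D2-(rs30079041-rs51756099)/Bakr, in which that segment was placed on the C57BL/6J (B6) background. The compared libraries were taken by their sample titles, 3 of each group, 6 of the 12 in the series. The other 6 give the reciprocal case with the B6 segment: 3 libraries of B6, which is C57BL/6J, and 3 of D2-13B6, a congenic strain with a B6 segment on the DBA/2J background. D2-13B6 is D2.B6-(rs29224292-rs13469455)/Bakr in the sample labels, while the series design text ends its segment at rs51756099. In the sample labels both of its markers differ from those of B6-13D2, so the segments of the congenic strains may not span the same interval. All 4 groups grew in serum medium with LIF, 1 μM of the MEK inhibitor PD0325901 and 3 μM of the GSK3 inhibitor CHIR99021, and the growth protocol names no feeder cells.

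Several labels limit what the groups stand for. The extraction protocol describes independent cultures of a single cell line for each strain, and the titles call the same libraries technical replicates, so p-values measure the spread between these samples. B6-13D2 is the line QJ 6-1. The D2 titles name the line D2 2-9 and the D2 cell line field names D2 5-5. B6 replicate 3 has another line name (4-1) than B6 replicates 1 and 2 (5-1). A difference between strain backgrounds therefore cannot be told apart from one between individual cell lines. Positions of the markers that bound the segment were not given in the sources used here. The columns of the congenic libraries also carry a prefix that those of the parental libraries lack, and a batch that it may mark would coincide with the groups.

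Embryonic stem cells are derived from the inner cell mass of the blastocyst and are held by LIF, which acts through STAT3, and by inhibition of MEK and GSK3 in a naive state marked by factors such as Esrrb, Tfcp2l1 and Klf5. They are commonly derived and grown on fibroblasts, whose transcripts are collagens, contractile proteins and other matrix genes. Strain differences in expression can arise in cis, from the variant at the gene itself, or in trans, from a factor encoded elsewhere. Chromosome 13 holds a large cluster of KRAB zinc finger genes, whose products recruit Trim28 and the histone H3 lysine 9 methyltransferase Setdb1 to repeats, and both groups carry the same allele within the segment.

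Libraries held 22184196 to 36411799 expected counts in D2 and 25921333 to 29741421 in B6-13D2. Across genes, log2 levels correlated with r from 0.988 to 0.992 within the 2 groups and from 0.926 to 0.932 between them. Levels are given in CPM, counts scaled to a common normalised library total, and are compared for a gene between groups only. A gene was called when the adjusted p of edgeR's quasi-likelihood test was under 0.05.

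Most tested genes differed between the B6-13D2 and D2 libraries. Of 17148 genes tested, 12800 were called between B6-13D2 and D2, or 74.6%, with 6288 higher in B6-13D2 (36.7% of tested genes) and 6512 lower (38.0%). Called genes differed by a median of 0.73 on the log2 scale, sign disregarded. With a log2 difference of 1 or more also required, 4821 genes were left (28.1%), 1602 higher (9.34%) and 3219 lower (18.8%), so the larger differences were mostly toward lower levels in B6-13D2. The libraries of the groups did not overlap for 12950 genes (75.5%). The shares below are to be read against these percentages.

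Transcripts of fibroblasts differed strongly between the groups. Summed over 11 fibroblast markers, the level was 17270, 16320 and 14460 CPM in D2 and 3244, 3217 and 3156 CPM in B6-13D2, a 5.0-fold difference of the means. All 11 markers were called lower in B6-13D2, and none was at 0 in these 6 libraries. In the libraries with the B6 segment the sum was 1.22-fold higher on the B6 background, at 9587 to 10390 CPM in B6 and 7878 to 8206 CPM in D2-13B6. Its markers split there, with 6 of 11 called higher and 4 lower, so the sum's direction in that comparison was not shared by all of them. Summed embryonic stem cell markers went the other way, from 3244 to 3316 CPM in D2 to 4878 to 5189 CPM in B6-13D2, with 9 of 10 called higher and Utf1 lower at -0.19. The labelled cell type was therefore present in all 6 libraries together with fibroblast transcripts. In bulk RNA, fewer cells of a type and less RNA per cell cannot be told apart. The part of these transcripts in the results that follow was not tested.

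**Figure D1:**
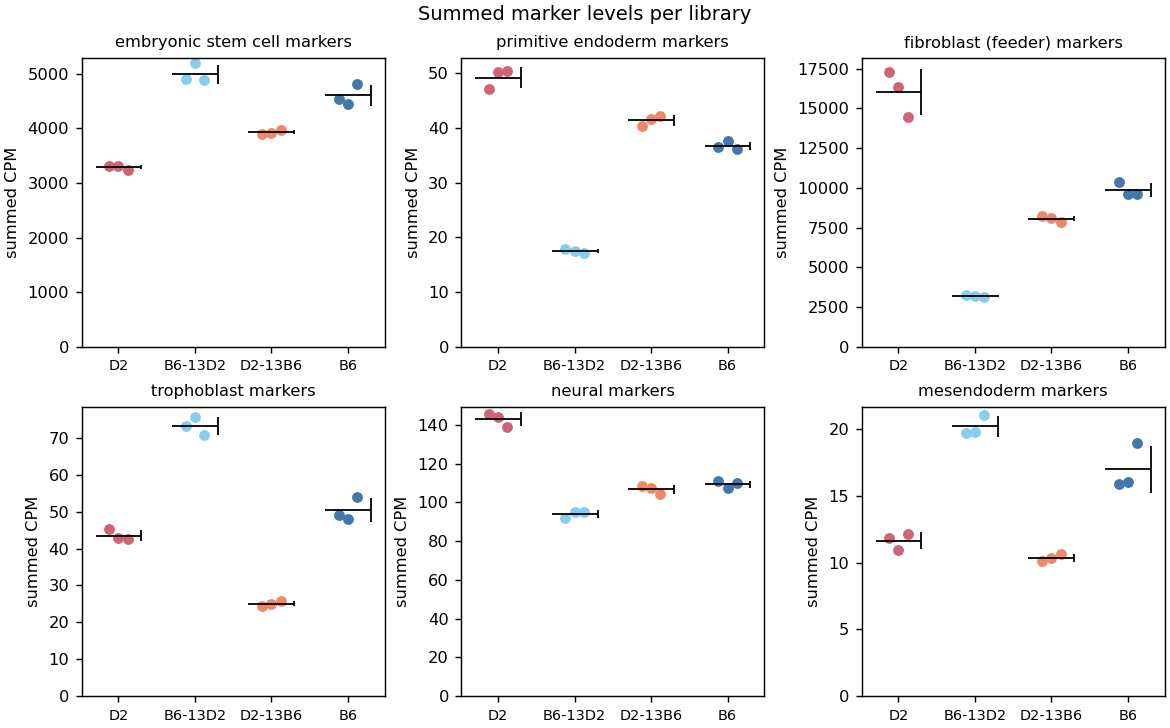
Summed CPM of the marker genes of 6 cell types in each of the 12 libraries, by group; points are libraries, horizontal lines are group means and vertical bars are 1 SD (n = 3). Fibroblast markers lie between 14460 and 17270 CPM in the 3 D2 libraries and between 3156 and 3244 CPM in the 3 B6-13D2 libraries.

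Sums for the other lineages were lower in CPM, although levels of different genes do not measure shares of cells. Summed primitive endoderm markers, which mark the extraembryonic cells that line the yolk sac, were at 47.0 to 50.4 CPM in D2 and 17.2 to 17.9 CPM in B6-13D2. Summed neural markers were at 138.9 to 145.6 CPM and 91.8 to 95.1 CPM. Trophoblast markers were at 42.6 to 45.2 CPM in D2 and 71.0 to 75.8 CPM in B6-13D2, and mesendoderm markers at 10.9 to 12.1 CPM and 19.7 to 21.1 CPM. Each of these rises rests on 1 gene, Tfap2c, from 31.6 to 66.00 CPM on average, and Eomes, from 5.38 to 14.2 CPM. Of 5 trophoblast markers tested, 2 were called higher and 3 lower, with a median log2 fold change of -1.17, opposite to the sum. The groups did not overlap in any of these sums, and no marker of these sets was at 0 in all 6 libraries.

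The genes with the largest differences included several that were nearly silent in 1 group. Promoters of 3 genes named in both background comparisons are printed because they differ widely in CpG content; the windows run from 250 bases before to 50 after the gene start in RefSeq's GRCm38.p6 sequence of C57BL/6J, with CpG dinucleotides in capitals. The Olig2 window (chr16:91225300-91225599, plus strand) holds 25 CpG, that of Ubd (chr17:37193642-37193941, plus strand) holds 0 and that of Adam23 (chr1:63445641-63445940, plus strand) holds 31. Over all 32851 windows of that table the median was 7, with quartiles of 3 and 20. The sequences are those of the reference and carry no DBA/2J variant.
Olig2: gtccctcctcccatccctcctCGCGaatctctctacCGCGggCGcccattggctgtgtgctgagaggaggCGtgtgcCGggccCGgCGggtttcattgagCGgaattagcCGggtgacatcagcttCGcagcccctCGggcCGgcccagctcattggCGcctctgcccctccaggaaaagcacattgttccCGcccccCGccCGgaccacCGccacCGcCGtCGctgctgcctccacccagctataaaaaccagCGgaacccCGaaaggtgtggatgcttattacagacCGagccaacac
Ubd: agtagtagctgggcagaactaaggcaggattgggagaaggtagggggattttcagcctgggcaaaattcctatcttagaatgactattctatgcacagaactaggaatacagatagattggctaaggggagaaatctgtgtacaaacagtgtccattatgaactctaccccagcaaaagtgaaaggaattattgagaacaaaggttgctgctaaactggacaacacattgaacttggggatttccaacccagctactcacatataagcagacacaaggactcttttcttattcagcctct
Adam23: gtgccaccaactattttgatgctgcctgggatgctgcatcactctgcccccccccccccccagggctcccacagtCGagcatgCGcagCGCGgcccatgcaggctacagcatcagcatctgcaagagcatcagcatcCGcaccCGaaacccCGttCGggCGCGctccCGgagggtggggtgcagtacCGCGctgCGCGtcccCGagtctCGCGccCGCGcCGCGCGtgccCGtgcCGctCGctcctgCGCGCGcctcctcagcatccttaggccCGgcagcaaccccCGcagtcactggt

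Among protein-coding genes with undivided reads, the 12 highest in B6-13D2 included Olig2, Ubd, Olig1, Slc15a2, Aox3, AA467197, Ppp1r14d, Elobl, Pou2f3, Nod1 and Ndufa4l2. Olig2 (chromosome 16, 91225457 to 91228677), a helix-loop-helix factor of the oligodendrocyte and motor neuron lineages, had 0.0416, 0.0278 and 0.09104 CPM in D2 and 36.6, 42.7 and 38.2 CPM in B6-13D2. With 4 counts over all D2 libraries the ratio was 804-fold, with a 95% counting interval of 314 to 2951. Its neighbour Olig1 (chromosome 16, 91269772 to 91271933), of the same family, had 0.583, 0.751 and 0.819 CPM in D2 and 37.04, 38.2 and 37.4 CPM in B6-13D2, a difference of 5.70 on the log2 scale (SE 0.103, adjusted p = 3.44e-18 in edgeR). Both genes were therefore close to silent in D2 and clearly expressed in every B6-13D2 library. Ubd (chromosome 17, 37193892 to 37196095) encodes a ubiquitin-like modifier that inflammatory cytokines induce. It had 0, 0.0834 and 0 CPM in D2 and 12.7, 13.7 and 11.8 CPM in B6-13D2, a ratio of 349-fold with a counting interval of 119 to 1694. All 3 of its D2 counts were in replicate 2, and the fitted log2 fold change went from 8.28 to 11.46 without that library, where it depends on the prior count.

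A transporter, an enzyme, a bacterial sensor and a transcription factor were among the rest. Slc15a2 (chromosome 16), a peptide transporter, had 0.208, 0.334 and 0.09104 CPM in D2 and 10.8, 12.3 and 12.4 CPM in B6-13D2, and Aox3 (chromosome 1), an aldehyde oxidase, differed by 5.33 on the log2 scale (SE 0.188, adjusted p = 2.1e-14 in edgeR). Nod1 (chromosome 6, 54923949 to 54972612), a cytosolic sensor of bacterial peptidoglycan, had 3.499, 4.25 and 2.73 CPM in D2 and 66.3, 65.7 and 60.2 CPM in B6-13D2. Pou2f3 (chromosome 9, 43123939 to 43210369), a POU-domain factor known from tuft cells, had 2.21, 2.14 and 2.05 CPM in D2 and 43.9, 42.4 and 43.8 CPM in B6-13D2, a difference of 4.34 on the log2 scale (SE 0.08200, adjusted p = 5.23e-18 in edgeR). The groups were far apart for each of these genes. AA467197, Ppp1r14d, Elobl and Ndufa4l2 had log2 fold changes of 4.58, 4.51, 4.36 and 4.10, and exons of Ndufa4l2 overlap Shmt2. Counting was not stated to use the strand, so a gene whose exons overlap another's is uncertain.

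The 12 lowest in B6-13D2 were Stab2, Kcnf1, Adam23, Nr4a3, Apoc2, Adra2a, Sytl3, C1qtnf3, Piezo2, Actg2, Has2 and Ereg. Adam23 (chromosome 1, 63445891 to 63596276), a membrane protein of the disintegrin family without protease activity, had 70.2, 72.4 and 78.98 CPM in D2 and 5.26, 5.805 and 4.61 CPM in B6-13D2, a difference of -3.81 on the log2 scale (SE 0.07000, adjusted p = 4.02e-18 in edgeR). Stab2 (chromosome 10, 86841198 to 87008025), a scavenger receptor for hyaluronan, had 7.71, 8.04 and 7.92 CPM in D2 and 0.727, 0.302 and 0.491 CPM in B6-13D2. Kcnf1 (chromosome 12), a potassium channel subunit, had 8.54, 8.09 and 7.06 CPM and 0.623, 0.436 and 0.528 CPM. These 3 genes stood about an order of magnitude apart with no overlap between libraries. Apoc2 (chromosome 7), which activates lipoprotein lipase, had 11.4, 10.8 and 9.97 CPM in D2 and 0.762, 0.805 and 1.28 CPM in B6-13D2. Sytl3 (chromosome 17), a vesicle trafficking protein whose exons overlap Ezr, differed by -3.37.

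The remainder of this list held an enzyme, an actin, a growth factor, receptors and a channel. Has2 (chromosome 15, 56665627 to 56694539), a hyaluronan synthase, had 55.2, 56.4 and 53.8 CPM in D2 and 6.09, 6.48 and 5.66 CPM in B6-13D2, a difference of -3.18 on the log2 scale (SE 0.05600, adjusted p = 2.78e-18 in edgeR). Actg2 (chromosome 6), the smooth muscle gamma actin, had 52.5, 53.8 and 46.98 CPM in D2 and 5.57, 5.74 and 5.28 CPM in B6-13D2. Ereg (chromosome 5), a ligand of the EGF receptor, had 24.2, 24.9 and 23.9 CPM and 2.804, 2.62 and 3.06 CPM. The fibroblast marker sum was lower in B6-13D2 too, while the direction of these 12 genes was fixed by their choice. Nr4a3, an immediate early nuclear receptor, Adra2a, an adrenergic receptor, C1qtnf3, a secreted protein, and Piezo2, a mechanically gated channel, had log2 fold changes of -3.54, -3.43, -3.35 and -3.24.

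Genes whose reads were divided with similar loci are uncertain for that reason and were named apart. Rbpj-ps3 (chromosome 6) had 21.6, 17.6 and 17.1 CPM in D2 and Gm13443 (chromosome 2) had 17.4, 20.9 and 20.9 CPM, and both were at 0 in all B6-13D2 libraries. Against a floor of 3 counts over the group they were at least 529.5-fold and 564.5-fold lower. Gm13841 (chromosome 5) and Gm8210 (chromosome 1) shared the same values in every library, 9.95, 10.4 and 44.3 CPM in D2 and 0 in B6-13D2, so their bound of 550-fold over the group leans on D2 replicate 3, and the fitted log2 fold change, which depends on the prior count, was -11.20 without it instead of -12.21. In the other direction, Lrrc31 (chromosome 3) had 0.2499, 0.556 and 0.455 CPM in D2 and 19.2, 20.1 and 19.2 CPM in B6-13D2, and its exons overlap Gm15462. E330020D12Rik, Gm6802 and Rpl21-ps15 differed by 5.16, 5.09 and 4.81. The D2 level of Rpl21-ps15 leaned on replicate 3, and its log2 fold change was 6.46 without that library.

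The comparison of B6 with D2-13B6 asks about the background with the B6 segment, which is labelled with other markers, and shares no library with the first. Its 10120 called genes (59.0%) comprised 5925 higher (34.6%) and 4195 lower (24.5%) in B6, and 1994 (11.6%) had a log2 difference of 1 or more. The excess of higher calls, 58.5%, depended on the scaling, with 50.7% higher under RLE size factors, 50.8% in DESeq2 and 49.2% with only the compared libraries. Of 8120 genes called in both comparisons, 4986 had the same direction and 3134 the opposite. The 4986 were 39.0% of the genes called in the first comparison and 49.3% of those called in the second. With a log2 difference of 1 or more in each, 1011 genes had the same direction, 499 higher and 512 lower on the B6 background. Because B6 replicate 3 is labelled as another line, these counts were also made without each library in turn, which gave 4590 to 5031 genes with the same direction.

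The overlap was also counted by direction and size. Of the 6288 genes higher in B6-13D2, 48.2% were also higher in B6 against D2-13B6 (Wilson 95% interval 46.9 to 49.4), and 18.3% were lower there. Of the 6512 genes lower in B6-13D2, 30.1% were also lower (29.0 to 31.2) and 30.5% were higher. Among the 3219 genes lower by a log2 of at least 1, 26.9% were also lower and 30.3% were higher. At a log2 of 3 or more the shares were 76.7% of 172 higher genes and 52.8% of 233 lower genes. They depended on the filter, at 49.6% of 349 and 29.9% of 535 without one, where the shares of all called genes were 44.5% and 29.2%, and at 92.7% of 96 and 65.5% of 87 for genes averaging 1 CPM or more. The intervals cover counting error only. The shares are to be read beside the 34.6% of all tested genes that were higher and the 24.5% that were lower in B6 against D2-13B6. Without a filter these were 20.5% and 16.6%, and for genes averaging 1 CPM or more they were 38.6% and 26.8%. Under RLE size factors, where these were 29.2% and 28.3%, 41.8% of the higher and 33.9% of the lower genes had the same direction. With only the compared libraries the latter shares were 41.6% and 34.9%, beside 29.7% and 30.6% of all tested genes, and the difference between higher and lower genes was not tested. For genes lower by a log2 of at least 1, the share was 28.8% under RLE size factors and 28.2% with only the compared libraries. Both lay near the share of all tested genes that were lower under the same setting.

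**Figure D2:**
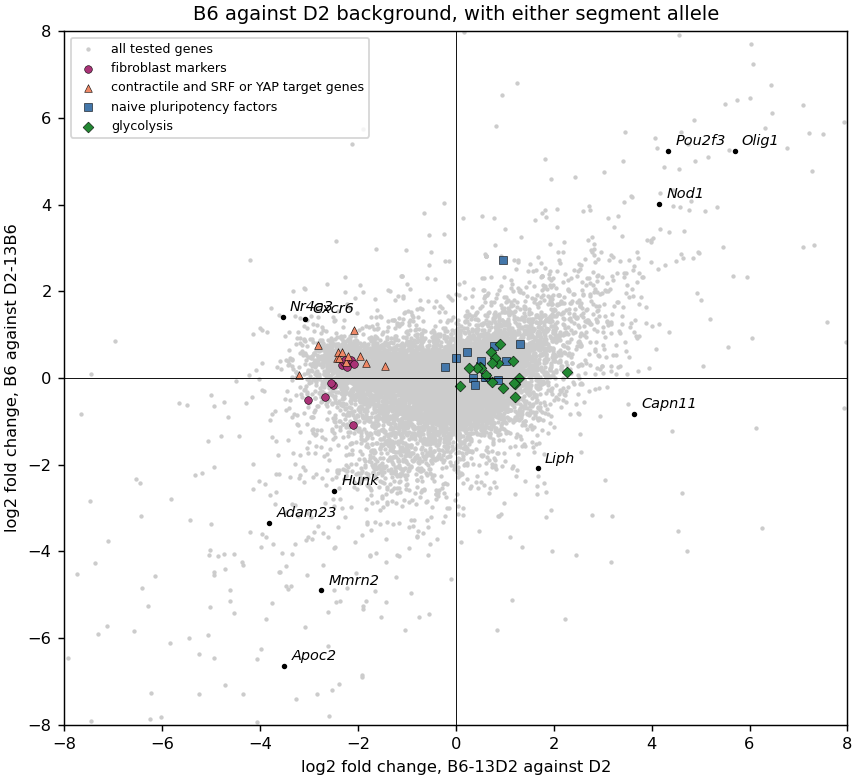
Each tested gene by its log2 fold change in B6-13D2 against D2 (horizontal) and in B6 against D2-13B6 (vertical), with members of 4 gene lists coloured and genes of the naming rule labelled; both axes are cut at 8. Fibroblast markers and contractile genes lie left of zero on the horizontal axis, at medians of -2.29 and -2.28, and on the vertical axis at medians of 0.24 and 0.48, while Olig1, Pou2f3 and Nod1 lie far from zero on both.

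The genes with the largest difference in the same direction in both comparisons were named by the smaller of the 2 fold changes. Olig2, Ubd, Olig1, AA467197, Pou2f3 and Nod1 were the 6 higher on the B6 background. Nod1 had 2.96, 3.49 and 3.37 CPM in D2-13B6 and 53.1, 50.8 and 55.9 CPM in B6, close to its levels in D2 and B6-13D2. Olig1 had 0.932, 0.747 and 0.544 CPM in D2-13B6 and 28.4, 28.8 and 29.1 CPM in B6. Olig2 had 8 counts in all D2-13B6 libraries and was 314-fold higher in B6 (159 to 728), and Ubd had none and was at least 335-fold higher. Each of these genes was thus low in both lines of the D2 background and high in both lines of the B6 background, whichever segment was present.

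The 6 genes lower in both were Adam23, Apoc2, Sytl3, Ccnb1ip1, Mmrn2 and Hunk. Adam23 had 71.96, 67.4 and 68.8 CPM in D2-13B6 and 6.63, 6.799 and 7.07 CPM in B6. Hunk (chromosome 16, 90386013 to 90499553), a serine/threonine kinase, had 74.01, 73.9 and 76.6 CPM in D2, 12.3, 13.9 and 14.00 CPM in B6-13D2, 69.7, 66.6 and 70.02 CPM in D2-13B6 and 11.9, 11.1 and 11.2 CPM in B6. Mmrn2 (chromosome 14), a matrix glycoprotein of blood vessels, differed by -2.75 in the first comparison and -4.89 in the second. Ccnb1ip1 (chromosome 14), a meiotic crossover factor whose exons overlap Rpph1, differed by -2.90 and -3.54. Adam23 was slightly lower in B6-13D2 than in B6, without overlap, and the background differences of Hunk, -2.48 and -2.60, did not pass edgeR's test of the interaction (adjusted p = 0.201). Apoc2 was lowest in B6, where it had 0.0878, 0.0839 and 0.214 CPM.

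**Figure D3:**
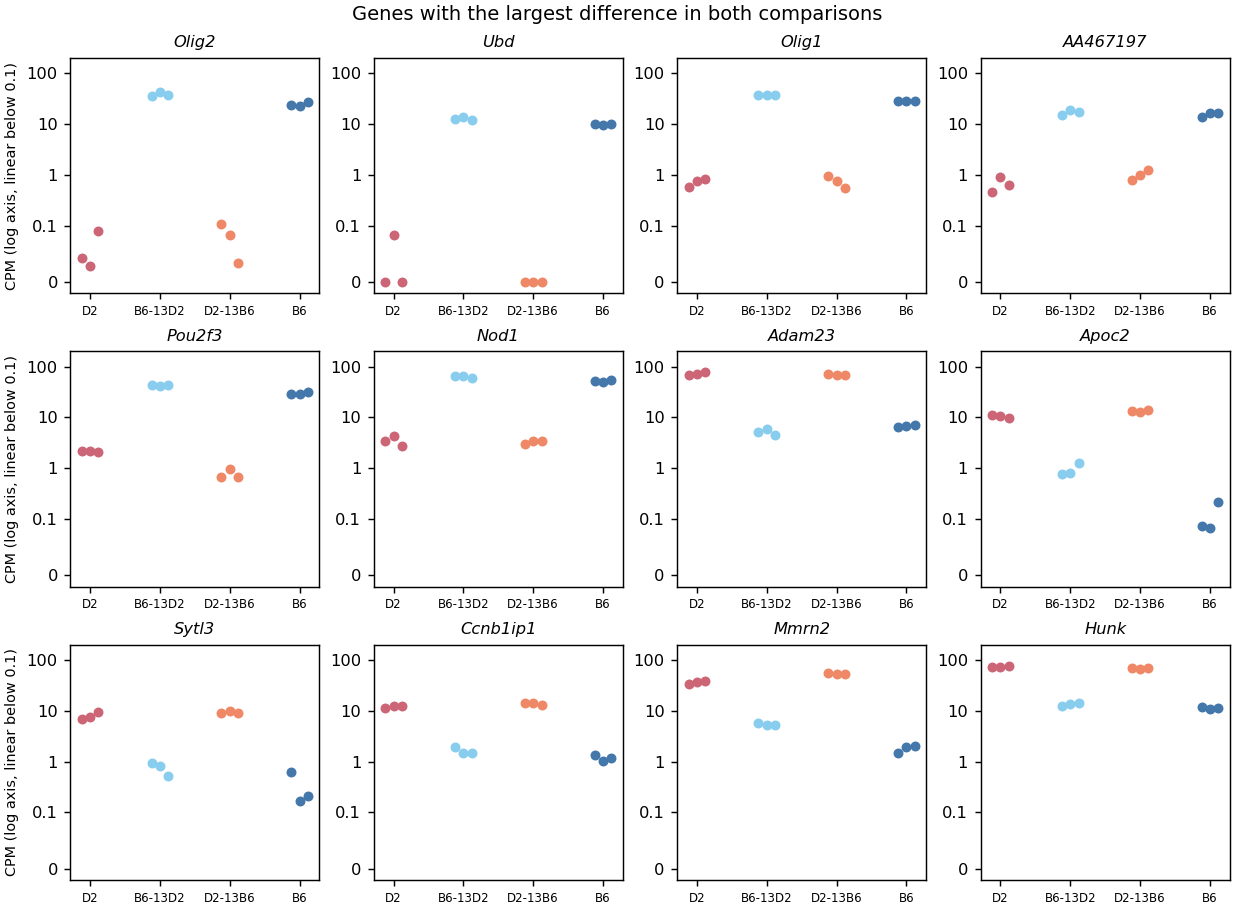
CPM of the 12 genes with the largest difference in the same direction in both comparisons, per library and group, on a log axis that is linear below 0.1 CPM. Nod1 lies between 2.73 and 4.26 CPM in D2 and between 60.2 and 66.3 CPM in B6-13D2, and the libraries of D2-13B6 and B6 lie beside those of D2 and B6-13D2 respectively.

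For 11059 genes (64.5%) the background difference itself differed between the segment alleles in edgeR's test of the interaction, by a log2 of 1 or more for 4392 (25.6%). By construction this contrast equals both congenic lines minus both parental lines, so anything particular to the congenic lines or to a batch of them cannot be told apart from an effect of the segment. Liph (chromosome 16, 21953817 to 21995663), a lipase, was called the opposite way in the 2 comparisons, with 4.71, 5.28 and 4.598 CPM in D2, 15.8, 16.1 and 14.98 CPM in B6-13D2, 25.2, 24.4 and 24.9 CPM in D2-13B6 and 5.01, 5.67 and 6.95 CPM in B6. It was high in both congenic lines and low in both parental lines. Ocln, a tight junction protein, and Kcnj12, a potassium channel, had the same order, with 3.02 and 4.07 CPM on average in D2 and B6 against 8.83 and 8.74 CPM in B6-13D2 and D2-13B6 for Ocln. The 6 genes named for this order also included Capn11 and Ascl2, with log2 fold changes of 3.65 and 1.79 in the first comparison and -0.82 and -0.96 in the second.

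Nr4a3, Has2, Ereg, Cxcr6 and Cxcl14 were among 6 genes with the reverse order, several of them secreted signals and receptors. Cxcr6 (chromosome 9), a chemokine receptor, had 12.2, 13.04 and 10.2 CPM in D2, 1.904, 1.21 and 1.09 CPM in B6-13D2, 4.03, 3.96 and 3.27 CPM in D2-13B6 and 10.5, 9.695 and 9.05 CPM in B6. The order of its group means, D2, then B6, D2-13B6 and B6-13D2, was that of the fibroblast marker sum, and the other 4 genes had the same order. The choice of these genes fixed D2 above B6-13D2 and B6 above D2-13B6, so that part of the match follows from the choice. Log2 fold changes were -3.07 for Cxcr6 and -2.83 for the chemokine Cxcl14 in the first comparison and 1.37 and 1.22 in the second.

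Naive pluripotency factors were higher in B6-13D2. Of 14 tested, 12 were called higher, with a median log2 fold change of 0.55 beside -0.003 for all tested genes. Tfcp2l1, a factor downstream of LIF, had 434, 434 and 437 CPM in D2 and 1120.0, 1042 and 1084 CPM in B6-13D2, a difference of 1.31 on the log2 scale (SE 0.03400, adjusted p = 2.45e-16 in edgeR). Klf5 had 101, 98.4 and 106 CPM and 206, 204 and 206 CPM. Both factors were at least 1 higher on the log2 scale, with no overlap between libraries, while Nanog, whose reads were divided, differed by 0.61, Esrrb by 0.50 and Klf4 by 0.24. Tbx3 and Gbx2 did not pass the test, at 0.00 and -0.21, the latter with divided reads. In B6 against D2-13B6, 9 were higher and 1 lower with a median of 0.33, and 7 were higher in both. The embryonic stem cell marker sum, which shares Nanog, Esrrb and Klf4 with this list, moved in the same direction in both comparisons. It was 1.52-fold and 1.17-fold higher on the B6 background.

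Core pluripotency genes split. Of 10 tested, 7 were higher and 3 lower. Lin28a, an RNA-binding protein that blocks let-7 maturation, had 65.1, 67.6 and 68.4 CPM in D2 and 176, 181 and 173 CPM in B6-13D2 and was also higher in B6 against D2-13B6, by 1.32. Pou5f1 and Sox2 were higher by 0.53 and 0.57. Dppa2, a chromatin regulator of early embryonic genes, had 94.6, 98.3 and 112 CPM in D2 and 46.8, 47.9 and 46.2 CPM in B6-13D2; the reads of Dppa2 and Pou5f1 were divided. Of 13 formative and primed markers, 3 were higher and 6 lower. Cdh2, the cadherin of mesenchymal and neural cells, had 128, 126 and 133 CPM and 24.5, 23.6 and 22.5 CPM, and Lef1, an effector of Wnt signalling, was lower in both comparisons, at -1.61 and -2.08. Nodal and Pou3f1 were higher by 0.45 and 0.66.

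Genes of the two-cell-like state, a rare state in which cultures express transcripts of the cleavage embryo, were mostly lower in B6-13D2. Of 13 tested, 12 were lower and 1 higher, with a median of -1.91. The fibroblast marker sum was 5.0-fold lower here and 1.22-fold higher in B6 against D2-13B6, there with 6 of its markers higher and 4 lower. Zscan4c, a zinc finger protein linked to telomere lengthening, had 47.4, 47.4 and 59.1 CPM in D2 and 9.97, 9.999 and 8.61 CPM in B6-13D2, and Zscan4e had 14.5, 12.6 and 23.1 CPM and 1.83, 2.62 and 3.77 CPM. Zfp352, with undivided reads, was lower by -1.65, and Gm4340 was higher by 1.68. Reads of 11 of the 13 were divided among copies, and the call of Gm4340 was lost with DESeq2 and without B6-13D2 replicate 2. With the B6 segment present in both lines, 10 of the 13 were higher, with a median of 0.73, and 1 was higher in both. Obox6, a homeobox gene of the early embryo, was lower by -1.29, and the other 6 members of its family on the list did not pass the filter on low counts.

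Lineage markers gave mixed calls. Of 14 primitive endoderm genes, 4 were higher and 8 lower. Lamc1, a laminin chain, rose from 542 to 886 CPM on average and Gata4 was higher by 0.70, while Cubn, with divided reads, and Col4a2, whose exons overlap Col4a1, were lower by -2.38 and -2.27. Of 7 mesendoderm genes, 3 were higher and 3 lower. Eomes had 5.71, 5.37 and 5.05 CPM in D2 and 13.3, 13.7 and 15.7 CPM in B6-13D2 and Gsc was higher by 1.88, whereas the brachyury gene T was lower by -1.10. Of 7 trophoblast genes, 2 were higher and 5 lower. Tfap2c rose from 31.6 to 66.00 CPM on average and Krt7 was higher by 1.42, while Cdx2 and Gata3 were lower by -1.97 and -1.17. Of 9 neural genes, 3 were higher, Olig1 and Olig2 among them, and 6 lower, with Map2 at -1.05 and Nes at -0.85.

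Fibroblast, matrix and contractile genes were mostly lower. The 11 fibroblast markers spanned -3.02 to -2.09 on the log2 scale, with a median of -2.29. Postn, a matrix protein of connective tissue, had 176, 184 and 185 CPM in D2 and 28.1, 31.4 and 26.3 CPM in B6-13D2, and Lum, a keratan sulfate proteoglycan, had 5.58, 5.56 and 4.64 CPM and 0.692, 0.5704 and 0.679 CPM. Of 40 collagens tested, 33 were lower and 4 higher, with a median of -2.03. Col3a1, of the fibrils of connective tissue, had 707, 674 and 594 CPM in D2 and 118, 114 and 115 CPM in B6-13D2, and Col10a1, whose exons overlap Nt5dc1, was lower by -2.58. Against this run Col26a1 and Col9a2 were higher. Col9a2 had 1.92, 1.97 and 2.19 CPM and 15.5, 15.5 and 15.5 CPM and was also higher in B6 against D2-13B6, by 1.95, whereas Col26a1 differed by 3.50 in the first comparison and 0.09 in the second.

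All 12 contractile genes tested were lower in B6-13D2, with a median of -2.28, and 11 of them were higher in B6 against D2-13B6, with a median of 0.48. Summed fibroblast markers were lower in the first comparison and higher in the second, where they split, 6 higher and 4 lower. Ankrd1, a target of YAP in muscle and fibroblasts, had 19.8, 22.1 and 21.7 CPM in D2 and 3.12, 2.72 and 3.17 CPM in B6-13D2, and Actg2 had the largest difference of the list. Such genes are known targets of serum response factor, which binds the CArG box. The box was searched by its name in promoter windows on both strands and was found in 3 of 10 list genes with a window, or 27.3% of 11 windows, beside 1.63% of all windows. The window of Myl9, a myosin light chain that was lower by -2.40, is shown as an example (chr2:156775214-156775513, plus strand), with the box in capitals. A match is a description of the reference letters and not of binding in these cells.
Myl9: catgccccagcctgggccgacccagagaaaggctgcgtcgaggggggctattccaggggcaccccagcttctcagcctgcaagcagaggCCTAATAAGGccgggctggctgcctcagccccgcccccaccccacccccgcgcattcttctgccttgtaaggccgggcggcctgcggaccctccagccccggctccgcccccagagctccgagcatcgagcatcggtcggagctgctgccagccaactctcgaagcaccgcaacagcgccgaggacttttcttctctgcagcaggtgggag

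Clustered protocadherins, which encode cell surface identity in neurons and are also expressed in fibroblasts, were lower for 33 of 35 tested and higher for 1, with a median of -2.03. Pcdhb19 had 1.67, 2.09 and 2.32 CPM in D2 and 0.104, 0.201 and 0.528 CPM in B6-13D2, and its log2 fold change went from -2.88 to -3.68 without B6-13D2 replicate 3. Pcdhgc4 was the exception, at 2.42, 1.78 and 2.41 CPM and 11.6, 18.9 and 6.11 CPM, although its B6-13D2 libraries were widely spread and its exons are shared with the rest of the gamma cluster. Reads of 26 of the 35 were divided. In B6 against D2-13B6, 6 were higher and 3 lower. The fibroblast marker sum was also lower in the first comparison, and its part in these calls was not tested.

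Interferon-stimulated genes were mostly lower. Of 29 tested, 19 were lower and 7 higher, with a median of -1.10. Usp18, which restrains interferon signalling, had 12.99, 15.2 and 13.3 CPM in D2 and 1.696, 1.95 and 1.85 CPM in B6-13D2, and Ifit1, an RNA-binding antiviral protein with divided reads, had 16.2, 18.02 and 16.7 CPM and 2.39, 2.38 and 1.81 CPM. Both were several-fold lower without overlap, as was the fibroblast marker sum, from 16020 to 3206 CPM on average. Stat2, a component of the interferon-activated factor ISGF3, went the other way, at 28.9, 25.1 and 28.7 CPM and 52.7, 56.1 and 57.97 CPM, and Oasl1 was higher by 1.15. In the second comparison the list had 7 higher and 12 lower, with a median of -0.05, and 9 genes were lower in both. Of 18 genes of antigen presentation, 13 were lower and 2 higher, with a median of -1.04. B2m, the light chain of class I molecules, had 602, 597 and 588 CPM in D2 and 114, 128 and 123 CPM in B6-13D2, and Nlrc5, its class I transactivator, was lower by -2.30, in the direction of that sum. In B6 against D2-13B6, 3 were higher and 8 lower, with a median of -0.32 and 7 lower in both. There Nlrc5 differed by -0.58 and B2m by 0.36, while the fibroblast marker sum was higher with its markers split. Cd74 and H2-Ab1, of the class II pathway, were higher by 2.90 and 0.80.

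The response element of ISGF3 was searched as GAAANNGAAA on both strands of the promoter windows, matches in one another's sequence included. It was found in 14 of 20 list genes with a window, or 58.3% of 24 windows, beside 3.44% of all windows. The windows of Ifit1 (chr19:34640639-34640938, plus strand), with 2 matches, and Isg15 (chr4:156200769-156201068, minus strand), with 3 overlapping ones, are shown with the matches in capitals because both genes were among the lowest of the list, Isg15 at -2.79.
Ifit1: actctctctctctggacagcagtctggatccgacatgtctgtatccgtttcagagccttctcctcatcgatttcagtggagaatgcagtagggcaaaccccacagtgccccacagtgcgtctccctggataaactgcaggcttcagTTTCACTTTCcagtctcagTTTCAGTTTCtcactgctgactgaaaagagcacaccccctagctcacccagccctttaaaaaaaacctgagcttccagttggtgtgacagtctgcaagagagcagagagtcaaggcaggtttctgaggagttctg
Isg15: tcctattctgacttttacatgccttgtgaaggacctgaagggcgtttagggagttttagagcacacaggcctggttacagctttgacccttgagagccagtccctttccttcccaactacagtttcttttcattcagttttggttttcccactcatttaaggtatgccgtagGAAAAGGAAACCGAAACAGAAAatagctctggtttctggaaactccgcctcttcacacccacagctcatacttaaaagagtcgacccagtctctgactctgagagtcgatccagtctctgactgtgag

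**Figure D4:**
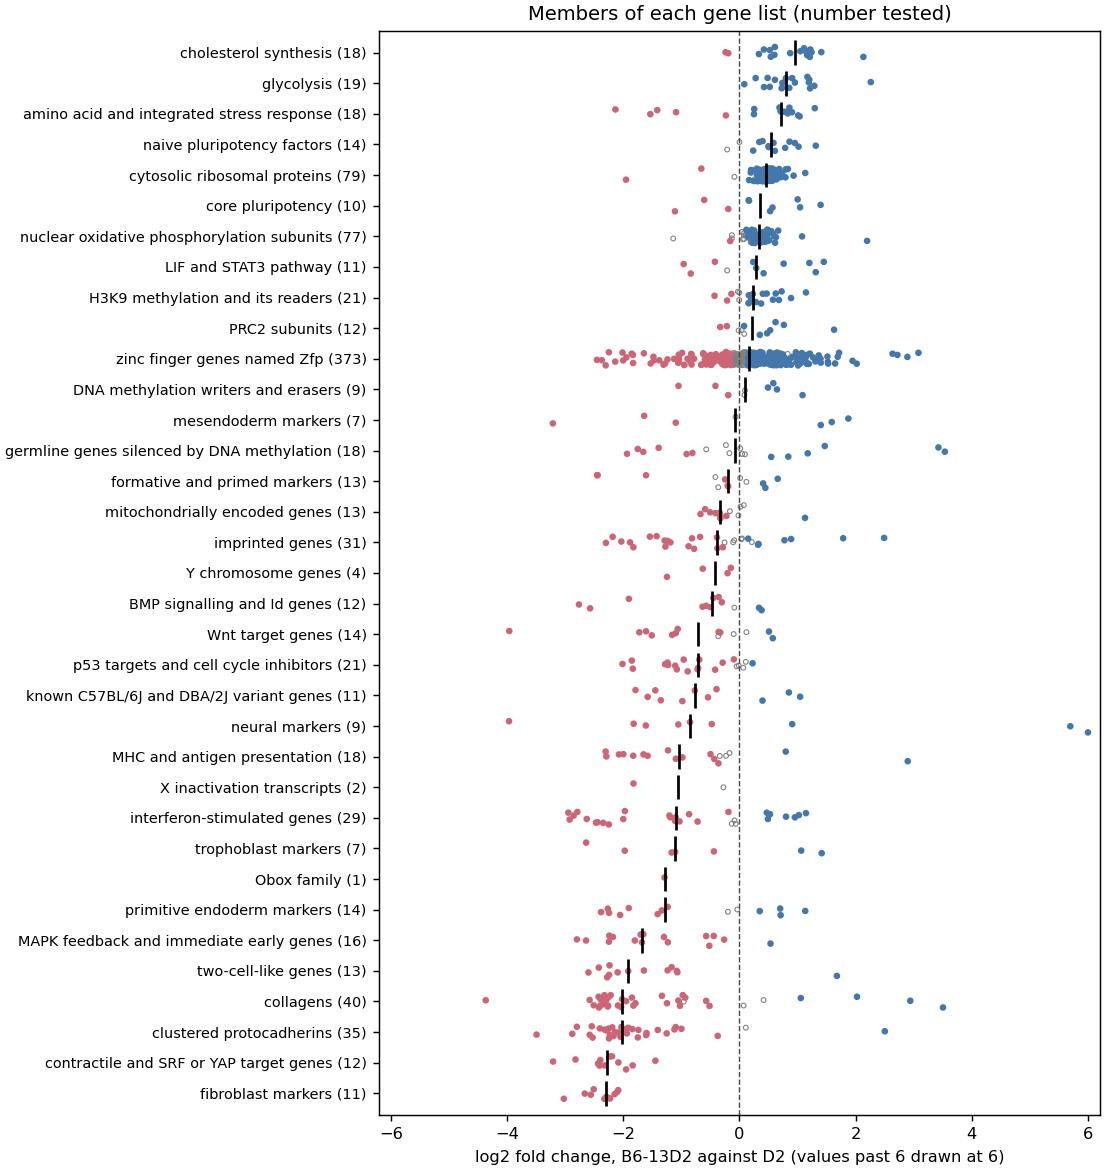
Log2 fold change of B6-13D2 against D2 for every tested member of each gene list, ordered by the list's median (vertical tick); filled points passed the test, higher in blue and lower in red, and open points did not. Fibroblast markers, at a median of -2.29, lie at one end and cholesterol synthesis genes, at 0.96, at the other.

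MAPK feedback and immediate early genes, which report signalling through ERK, were lower for 15 of 16 and higher for 1, with a median of -1.67. Fosl1, an AP-1 subunit whose exons overlap Ccdc85b, had 26.4, 25.6 and 26.5 CPM in D2 and 4.15, 3.73 and 3.36 CPM in B6-13D2, and Spry4, a feedback inhibitor of the pathway, had 24.8, 25.5 and 24.7 CPM and 3.12, 4.33 and 4.61 CPM. Its relative Spry2 was the exception, at 58.9, 63.5 and 60.5 CPM and 91.5, 86.5 and 87.6 CPM, and was also higher in B6 against D2-13B6, by 2.30. In that comparison 11 of the 16 were higher and 3 lower, with a median of 0.48. The fibroblast marker sum was lower in the first comparison and 1.22-fold higher in the second, although 4 of its 11 markers were called lower there.

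Other signalling lists were mixed or lower. Of 14 Wnt target genes, 9 were lower and 2 higher: Lgr5, a receptor for R-spondin, had 4.62, 3.17 and 3.46 CPM in D2 and 0.208, 0.201 and 0.302 CPM in B6-13D2 and Nkd2 was lower by -1.72, while Tcf7 and Cdx1 were higher by 0.51 and 0.57. Of 12 genes of BMP signalling, 9 were lower and 2 higher, and in the second comparison 7 were higher and 2 lower. The fibroblast marker sum moved with most Wnt and BMP genes in the first comparison. In the second, where its own markers split, it was higher, as were most BMP genes. The ligand Bmp4 had 41.6, 40.2 and 41.6 CPM in D2 and 6.92, 5.704 and 5.51 CPM in B6-13D2, its target Id1 had 44.9, 43.6 and 37.97 CPM and 7.03, 7.08 and 7.21 CPM, and Id2 and Dusp9 were higher by 0.38 and 0.34. Of 11 genes of the LIF pathway, 7 were higher and 3 lower. The lower ones were signal transducers, the receptor subunit Il6st at -0.96, the kinase Jak1 at -0.84 and Stat3 at -0.42, and exons of Jak1 overlap Raver2 and those of Stat3 overlap Stat5a. Among the higher ones were the targets Tfcp2l1 and Bcl3, which had 25.99, 26.2 and 24.1 CPM in D2 and 68.2, 73.5 and 67.7 CPM in B6-13D2.

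Genes of glycolysis and cholesterol synthesis were mostly higher in B6-13D2. All 19 glycolysis genes were called higher, with a median of 0.80. Hk2, the hexokinase that starts the pathway, had 194, 190.2 and 199 CPM in D2 and 489, 457 and 479.5 CPM in B6-13D2, and Aldoc, an aldolase, had 6.08, 7.17 and 6.601 CPM and 32.7, 32.9 and 30.3 CPM. In B6 against D2-13B6 the list had 10 higher and 5 lower, with a median of 0.22, and Hk2 and Aldoc did not pass there, at 0.01 and 0.14. Of 18 genes of cholesterol synthesis, 16 were higher and 2 lower, with a median of 0.96, and 14 were higher in both comparisons. Dhcr7, a reductase of the final steps, had 25.4, 26.3 and 24.3 CPM in D2 and 111, 115 and 109 CPM in B6-13D2, and Insig1, a sterol-responsive regulator, was higher by 1.41. Sc5d, a desaturase of the pathway, was lower by a small amount, -0.19. The sterol regulatory element, searched as TCACNCCAC on both strands, was present in 1 of 12 list genes with a window, Hmgcs1, or 7.1% of 14 windows beside 1.24% of all windows.

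Nuclear respiratory and ribosomal protein genes were mostly higher by small amounts, with exceptions in both lists. Of 77 nuclear subunits of oxidative phosphorylation, 62 were higher and 1 lower, with a median of 0.33, and 34 were higher in both comparisons. Cox7a1 and Cox6b2, tissue-specific subunits of cytochrome oxidase, were higher by 2.20 and 1.08, and Sdhc was lower by -0.16, a call lost without D2 replicate 1 (adjusted p 0.0997), B6-13D2 replicate 1 (0.0564) or B6-13D2 replicate 3 (0.0513) in edgeR. Of the 13 genes encoded in mitochondria, 8 were lower and 1 higher, with a median of -0.33: mt-Cytb had 2255, 2358 and 2542 CPM in D2 and 1525, 1615 and 1610.0 CPM in B6-13D2. In the second comparison, 9 of the 13 were higher. Of 79 cytosolic ribosomal protein genes, 76 were higher and 2 lower, with a median of 0.45, although reads of 64 were divided among similar loci, Rpl5 and Rpsa included. Rpl5, whose exons overlap Fam69a, had 363, 385 and 417 CPM in D2 and 100.5, 102 and 98.2 CPM in B6-13D2 and also differed by -2.29 in the second comparison, and Rpsa was higher by 1.13. Rps27 was listed at 0 in all 6 libraries.

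Of 18 genes of amino acid synthesis and the integrated stress response, 13 were higher and 5 lower, with a median of 0.71. The biosynthetic enzymes Pycr1 and Psph were higher, Pycr1 at 18.2, 18.6 and 20.4 CPM in D2 and 46.7, 48.4 and 45.1 CPM in B6-13D2 and Psph, whose exons overlap Cct6a, by 1.04. The cystine transporter Slc7a11, with divided reads, and the stress factor Atf5, whose exons overlap Il4i1, were lower by -2.13 and -1.53. Of 21 p53 targets and cell cycle inhibitors, 16 were lower and 1 higher, with a median of -0.72. The death receptor Fas had 6.58, 6.56 and 6.01 CPM and 1.87, 1.61 and 1.25 CPM, the inhibitor Cdkn2b was lower by -1.85 and Sesn1 was higher by 0.23. In B6 against D2-13B6 these 21 had 5 higher and 11 lower, with 9 lower in both. Summed fibroblast markers were lower in the first of these comparisons and, with single markers split, higher in the second.

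Genes of heterochromatin were mostly higher in B6-13D2, by small amounts. Of 21 genes of histone H3 lysine 9 methylation and its readers, 15 were higher and 3 lower, with a median of 0.23. The chromatin assembly subunit Chaf1b had 48.6, 48.03 and 54.6 CPM in D2 and 112, 111 and 110.0 CPM in B6-13D2, and the heterochromatin protein Cbx1 was higher by 0.89. Setdb1, with divided reads and exons that overlap Cers2, was higher by 0.40, and Trim28 did not pass the test, at -0.03. The remodeller Smarcad1 and the HUSH complex member Pphln1 were lower by -0.43 and -0.21. With the B6 segment present in both lines the list had 9 higher and 7 lower, with a median of 0.01. Of 12 PRC2 subunits, 7 were higher and 2 lower, with Phf19 at 1.63, Ezh1 at 0.77, Aebp2 at -0.33 and Phf1 at -0.22. The call of Phf1, whose exons overlap Cuta, was lost under 7 of the alternatives, with edgeR or DESeq2 adjusted p from 0.0514 to 0.233.

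Of 9 writers and erasers of DNA methylation, 4 were higher and 3 lower. Uhrf1, the cofactor that brings Dnmt1 to replicated DNA, had 408, 415 and 426 CPM in D2 and 879, 902 and 871 CPM in B6-13D2, and Tdg was higher by 0.65. Reads of both were divided, and exons of Tdg overlap Glt8d2. The dioxygenase Tet3 and the cofactor Dnmt3l, whose exons overlap Aire, were lower in both comparisons, at -1.05 and -0.41 in the first and -0.88 and -1.56 in the second. Of 18 germline genes known to be silenced by methylation, 6 were higher and 6 lower. The RNA helicase Ddx4 had 2.999, 3.42 and 3.19 CPM and 8.65, 9.39 and 8.72 CPM, and Sycp3, of the synaptonemal complex, was higher by 3.43 with divided reads and exons that overlap Chpt1. Its partner Sycp1 had 6.12, 6.01 and 5.96 CPM and 1.49, 1.58 and 1.66 CPM, and the bromodomain protein Brdt was lower by -1.75. These 4 had the same direction in B6 against D2-13B6.

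Imprinted genes, expressed from 1 parental copy, were lower for 18 of 31 and higher for 7, with a median of -0.39. Phlda2, a brake on placental growth, had 1.62, 1.06 and 1.64 CPM in D2 and 7.75, 7.99 and 7.85 CPM in B6-13D2, and Ascl2 was higher by 1.79. Dlk1, a Notch pathway ligand, had 7.54, 7.31 and 8.15 CPM and 1.83, 1.54 and 1.66 CPM, and Airn, the noncoding RNA of the Igf2r cluster, was lower by -2.30. The RNA Xist, which coats an inactive X chromosome, had 172, 168 and 166 CPM in D2 and 48.4, 43.5 and 50.99 CPM in B6-13D2. Reads of Xist were divided, and its exons overlap its antisense partner Tsix. All 4 Y chromosome genes were lower, Kdm5d at 6.87, 6.45 and 6.05 CPM and 2.77, 2.92 and 2.45 CPM and Eif2s3y at 54.5, 53.6 and 57.9 CPM and 33.9, 36.5 and 36.6 CPM. Reads of Kdm5d were divided, and 2 of the 4 were called among undivided genes. Transcripts of Xist and of the Y chromosome were thus present together in all 6 libraries.

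Zinc finger genes named Zfp were higher for 164 of 373 tested and lower for 86, with a median of 0.16. Of 29 tested on chromosome 4, 19 were higher and 8 lower, and 11 were higher by a log2 of at least 1. Zfp992 (chromosome 4, 146449023 to 146470292) had 35.03, 35.3 and 40.5 CPM in D2 and 273, 269 and 277 CPM in B6-13D2, and Zfp993 (chromosome 4, 146610961 to 146658160) had 2.71, 3.28 and 3.004 CPM and 25.03, 28.4 and 23.5 CPM. Both were also higher in B6 against D2-13B6, by 1.54 and 2.20, and the reads of both were divided, so they are uncertain. On chromosome 13, 20 of 34 were higher and 2 lower, and only 2 of those calls, both higher, reached a log2 of 1. The lowest were Zfp703 and Zfp503, transcriptional cofactors of the NET family, at 74.97, 68.6 and 60.95 CPM in D2 and 12.2, 12.1 and 13.2 CPM in B6-13D2 for Zfp703 and -2.37 on the log2 scale for Zfp503. Reads of 116 of the 373 were divided.

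Genes known to carry variants between C57BL/6J and DBA/2J were lower for 8 of 11 tested and higher for 3. Nnt (chromosome 13, 119335448 to 119408997), the mitochondrial transhydrogenase that lacks several exons in C57BL/6J, had 22.9, 24.7 and 26.04 CPM in D2 and 53.4, 47.9 and 50.5 CPM in B6-13D2, and 21.6, 21.6 and 21.3 CPM in D2-13B6 and 44.7, 44.3 and 43.3 CPM in B6. Its level followed the background and not the segment, although a count over the whole gene does not show the missing exons. Apobec3, an antiviral deaminase whose exons overlap Cbx7, was higher by 0.85. Myo5a, the motor protein disrupted by the dilute allele of DBA/2J, had 139, 143 and 142 CPM in D2 and 41.5, 38.5 and 42.99 CPM in B6-13D2 but differed by -0.02 in B6 against D2-13B6, and Ahr, the dioxin receptor, had -1.58 and 0.16. Gpnmb, which has a premature stop codon in DBA/2J, was lower on the B6 background in both comparisons, at -1.35 and -1.56.

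Chromosome 13 as a whole had shares of called genes near those of the other chromosomes. Of its 638 tested genes, 474 were called (74.3%), and 177 had a log2 difference of 1 or more (27.7%, Wilson 95% interval 24.4 to 31.3), beside 28.1% of 16351 genes on the other chromosomes. Elovl7 (chromosome 13, 108214404 to 108285683), a fatty acid elongase, was the highest of the chromosome by the naming rule, at 2.29, 2.23 and 3.19 CPM in D2 and 24.1, 24.4 and 27.1 CPM in B6-13D2. Lncenc1 (chromosome 13, 97434970 to 97497007), a long noncoding RNA of embryonic stem cells, had 46.4, 49.05 and 48.2 CPM and 215, 214 and 212 CPM, a difference of 2.16 on the log2 scale (SE 0.03400, adjusted p = 1.82e-18 in edgeR), and was also higher in B6 against D2-13B6, by 1.77. Stard3nl, of contacts between endosomes and the endoplasmic reticulum, Ocln and Serpinb6c were higher by 1.60, 1.51 and 1.48. The lowest were Hist1h2ab, a histone gene with divided reads, Cxcl14, Nedd9, an adhesion scaffold, Parp8 and Inhba, which encodes the activin A subunit. Inhba (chromosome 13, 16011851 to 16031621) had 120.4, 119 and 115 CPM in D2 and 17.9, 20.5 and 18.5 CPM in B6-13D2, and Cxcl14 (chromosome 13, 56288643 to 56296551) had 231, 214 and 199.9 CPM and 31.4, 32.2 and 27.1 CPM. Hist1h2ab, Nedd9 and Parp8 were lower by -3.11, -2.79 and -2.72, and all 5 of these genes were higher in B6 against D2-13B6, by 0.52 to 1.22 on the log2 scale, while the fibroblast marker sum was lower in the first comparison and, with its markers split, higher in the second.

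Along the chromosome, in windows of 5 Mb, the stretch from 60 to 70 Mb had fewer large differences than the chromosome as a whole. This stretch was chosen with its values in view. It holds 28 of the 35 tested genes of the chromosome whose symbol begins with Zfp and a digit, pseudogenes included, and 84 tested genes in all. Of these, 53 were called (63.1%) and 10 had a log2 difference of 1 or more (11.9%, Wilson 95% interval 6.6 to 20.5). The 10 were Gas1, Fbp1, Ctla2a and Ube2ql1, which were lower, and Gm17514, Gm26639, Gm9625, Nlrp4f, Vmn2r-ps104 and Zfp712, which were higher. Reads of Gm17514, Gm26639 and Gm9625 were divided. Nlrp4f, an oocyte NLR protein, had 6.497, 7.703 and 8.604 CPM in D2 and 16.1, 16.5 and 16.2 CPM in B6-13D2, and Gas1, a membrane protein that binds hedgehog, had 34.7, 30.7 and 24.9 CPM and 5.54, 6.84 and 5.78 CPM. The window at 105 to 110 Mb was lower still, with 8.3% of 12 genes past that size. Windows at 15 to 20, 30 to 35, 110 to 115 and 115 to 120 Mb had 45.5% of 11, 46.9% of 32, 45.8% of 24 and 47.8% of 23. Whether the first stretch lies inside the shared segment was not tested, as the positions of its markers were not at hand.

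Medians over whole autosomes stayed close to the median of all tested genes in B6-13D2 against D2. Over all tested genes, chromosome 18 was the lowest autosome, at -0.25 against that median, and chromosome 17 the highest, at 0.19. Among undivided genes, chromosomes 3 and 1, at -0.23 and -0.21, lay below chromosome 18, at -0.13. Chromosome 11 was at 0.02 in B6-13D2 against D2 and at -0.35 in B6 against D2-13B6, and of its 716 genes called in both comparisons, 51.8% had the same direction, beside 61.4% over all chromosomes. On chromosome 13, 56.4% of 307 had the same direction.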

How the data were processed

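RNA from 12 libraries was sequenced, 3 in each of 4 groups. The authors deposited expected counts, which are estimated read numbers per Ensembl gene and library that need not be whole, and which EMASE made by dividing shared reads among loci, per the file's title. The submitters' processing notes name mm10, Bowtie 1.0.0 and edgeR 3.34.1 without saying which step used each, and whether counting used strand is not given in the sources used here. Of all values, 88.1% were whole to within 1e-06; a gene is called undivided when its values were whole in every library. Symbols and positions came from GENCODE M21 (GRCm38), which held 42462 of 43346 gene IDs, the others holding 0.361% of reads.

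Expected counts were rounded and tested with edgeR 4.0.16 in R 4.3.3: filterByExpr with a minimum count of 10, TMM scaling, a quasi-likelihood fit of 4 group means over all 12 libraries and Benjamini-Hochberg adjustment at 0.05 over all tested genes. DESeq2 1.42.0 was an alternative, and both fits were also run on simulated data. Contrasts were B6-13D2 minus D2, B6 minus D2-13B6, and their difference. Standard errors are the absolute log2 fold change over the square root of F. Ratios of genes near 0 carry exact 95% counting intervals or, with 0 counts, a floor of 3 counts. Such intervals leave out PCR duplication, since the reads carried no molecular identifiers. Alternatives were other tools, scalings and filters, a log2 threshold of 1, the replicate block and leaving out each library.

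Groups, gene lists and naming rules were chosen with earlier results of these data known. Named genes were the 12 highest and 12 lowest protein-coding, undivided, called genes whose mean log2 CPM reached 2 and whose groups did not overlap, 4 and 4 genes with divided reads, 6 and 6 with the same and with the opposite direction in both comparisons, 5 and 5 on chromosome 13, and up to 2 and 2 of each of 35 lists. Members named with values outside these rules were chosen after their values were seen. The contractile list holds 2 symbols, Ctgf and Cyr61, that the annotation does not use, and those members were not analysed here. Some genes that meet the rules are not reported here.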

Additional observations from a re-analysis of the deposited data

Results flagged for a closer look

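The background difference was set against itself with the other segment allele, as the log2 fold change of B6-13D2 against D2 minus that of B6 against D2-13B6. In edgeR's test of this interaction, 11059 of 17148 genes had an adjusted p under 0.05, among them 95 of 111 genes named from the lists alone and 29 of 40 genes named for their size. All 12 genes named for opposite directions in the comparisons passed it too, which that choice largely fixed. Most of the other named genes were chosen by their size in the first comparison, which is a part of this contrast. That choice can raise their shares, so these are not a result about the named genes. A positive value means that the gene stood higher in B6-13D2, relative to D2, than in B6 relative to D2-13B6. Positive differences, on the log2 scale, were 4.47 for Capn11, 3.75 for Liph, 3.44 for Ndufa4l2, 3.30 for Slc15a2, 3.13 for Apoc2, 2.75 for Ascl2 and 2.63 for Kcnj12. Further down stood 2.61 for Ocln, 2.45 for Lrrc31, 2.14 for Mmrn2, 1.81 for Ppp1r14d, 1.60 for Serpinb6c, 1.58 for Elovl7 and 1.43 for Sytl3. Then came 1.39 for Aox3, 1.25 for Gm6802, 1.00 for Elobl, 0.64 for Ccnb1ip1, 0.48 for Stard3nl and 0.39 for Lncenc1. Negative differences were -4.96 for Nr4a3, -4.62 for Gm13443, -4.44 for Cxcr6, -4.30 for Hist1h2ab, -4.05 for Cxcl14, -3.99 for Has2 and -3.99 for Ereg. They were followed by -3.79 for C1qtnf3, -3.73 for Adra2a, -3.68 for Stab2, -3.55 for Nedd9, -3.36 for Piezo2, -3.29 for Inhba and -3.27 for Actg2. At the end of this list stood -3.24 for Parp8, -1.44 for Kcnf1, -0.91 for Pou2f3 and -0.47 for Adam23. The fitted values of Ubd, Gm13443 and Rbpj-ps3 rest on groups with 0 counts and depend on the prior count. The fibroblast marker sum was 5.0-fold lower in B6-13D2 than in D2 and 1.22-fold higher in B6 than in D2-13B6. Its part in these differences was not tested, and a difference between congenic and parental lines cannot be told apart from one between segment alleles.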

How the results depend on the processing

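All counts of called genes stayed within 1.5 times the reported ones under DESeq2, RLE size factors, no filter on low counts, a mean CPM of at least 1, only undivided genes and each library left out, as did those of the 2 comparisons with only the libraries compared, and 49.4% to 49.9% of calls in B6-13D2 against D2 were higher under these settings other than left-out libraries. In B6 against D2-13B6, 58.5% were higher as reported, 50.7% with RLE size factors, 50.8% in DESeq2, 49.2% with only the libraries compared and 55.3% to 60.3% under the other filters. Requiring a log2 difference of 1 or more left 4821 genes in B6-13D2 against D2, 1994 in B6 against D2-13B6, 4392 for the difference and 1011 with the same direction in both. Leaving out each library in turn gave 12186 to 13048, 9230 to 10466, 10599 to 11113 and 4590 to 5031 genes. A replicate block gave 12705, 10026, 10966 and 4938. Deviations of same-numbered libraries correlated with r from -0.125 to 0.068 over 18 pairs, so the numbers showed no pairing. Among named genes, only Gm4340, Phf1 and Sdhc lost their call under an alternative, in 12 cases in all, and none reversed. Within the lists, counts of calls moved by over 1.5 times in 31 cases, all toward fewer calls. A log2 of 1 or more, a stricter rule by construction, made 20 of them, such as glycolysis from 19 to 6, naive factors from 12 to 2, H3K9 methylation from 18 to 1 and ribosomal proteins from 78 to 2. Keeping only undivided genes, and so testing fewer, made 10, such as ribosomal proteins from 78 to 14, two-cell-like genes from 13 to 2, protocadherins from 34 to 9 and glycolysis from 19 to 10. A mean CPM of at least 1 made the other, mesendoderm markers from 6 to 3. Of the chromosome medians named, that of chromosome 13 was 0.00 with a mean CPM of at least 1, that of chromosome 18 was -0.17 there and -0.13 for undivided genes, and that of chromosome 17 was 0.12 without the filter. Depth limits genes near 0, for which ratios carry counting intervals.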
